A study of Mus musculus with 2 samples.

Results

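The genes described here are 10 members of the TGF-beta and activin system, chosen by symbol from 32285 measured genes. They were the ligand genes Tgfb1, Tgfb2, Tgfb3 and Inhba, the receptor genes Tgfbr1 and Tgfbr2, the intracellular inhibitor Smad7, the activin antagonist Fst, and Ltbp1 and Ltbp2, whose products belong to the latent TGF-beta binding protein family. Their levels were measured by single-cell RNA sequencing in vascular smooth muscle cells (VSMCs), the contractile cells of the arterial wall. Primary VSMCs from aortas of C57BL/6 mice were studied in 4 cultures, with the aim of comparing young with aged cells, young cells with cells exposed to angiotensin II (AngII), a hormone that raises blood pressure, and aged cells with aged cells given a small interfering RNA against the mechanosensitive channel Piezo1 (siPiezo1). The young group came from mice of 12 weeks and the old group from mice of 58 to 78 weeks. The young + AngII group received 100 nM AngII for 48 h. The old + siPiezo1 group was transfected with 20 nM siRNA by the study's methods section, while its results section gives a slightly higher dose. The cells were bought as primary cultures from a pair of suppliers, and the sources used here do not say which lots entered this experiment. The sources used here do not give the donors' sex. For another assay the study says that its old cells received a non-targeting siRNA, and for the sequenced old group this is not stated.

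The 4 cultures were marked with antibody-borne oligonucleotides (hashtags), mixed, and captured as 1 droplet library. The study's schematic numbers the groups as young 1, old 2, young + AngII 3 and old + siPiezo1 4 without saying that these are hashtag numbers, so the hashtag is kept beside each name below. Each hashtag was taken as 1 culture, since no replicate cultures could be told apart. Differences between hashtags therefore have no replicate check, and a difference of treatment or age cannot be told apart from a difference between cultures. No test was made, and every interval given is a 95% interval for counting error only.

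TGF-beta is secreted in a latent complex, held inactive by its own propeptide and tethered to the extracellular matrix by latent TGF-beta binding proteins. Once released, it binds TGFBR2, which recruits and phosphorylates TGFBR1, and the activated receptor phosphorylates SMAD2 and SMAD3 to change transcription. Activin A, a dimer of the Inhba product, signals through the same SMAD proteins by its own receptors and is trapped by follistatin, the product of Fst. SMAD7 is induced by the pathway and blocks the receptors as negative feedback. In arteries this system is known for its part in matrix production, smooth muscle differentiation and aortic disease.

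The upstream sequences of Inhba, Tgfb2 and Ltbp1 are shown as examples. The transcripts of these genes differed between hashtags by more than 1.5-fold, and RefSeq entries for them held core promoter or SMAD motifs. Ltbp2 met both conditions too and is not shown. Ltbp1 had another entry, with SMAD boxes and no other searched motif, and only the first is shown. Each sequence is the 250 bases before the annotated transcription start in GRCm38.p6, printed on the strand of the gene, with motif letters in capitals. Both strands were searched for the SMAD box (letters CAGAC, read as GTCTG from the other strand), for the cyclic AMP response element or CRE (letters TGACGTCA), for the AP-1 element (letters TGACTCA, read as TGAGTCA from the other strand) and for the CCAAT box (letters CCAAT, read as ATTGG from the other strand), and the gene's own strand for the TATA box (letters TATAAA). The matches shown do not overlap. The Inhba sequence is chr13:16011601-16011850 on the plus strand, that of Tgfb2 is chr1:186705990-186706239 on the minus strand, and that of Ltbp1 is chr17:75005279-75005528 on the plus strand.
Inhba: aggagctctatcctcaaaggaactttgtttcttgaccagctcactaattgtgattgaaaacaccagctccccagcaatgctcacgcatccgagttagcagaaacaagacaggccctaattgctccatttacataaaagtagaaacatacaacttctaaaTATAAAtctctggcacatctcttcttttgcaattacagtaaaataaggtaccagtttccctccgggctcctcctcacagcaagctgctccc
Tgfb2: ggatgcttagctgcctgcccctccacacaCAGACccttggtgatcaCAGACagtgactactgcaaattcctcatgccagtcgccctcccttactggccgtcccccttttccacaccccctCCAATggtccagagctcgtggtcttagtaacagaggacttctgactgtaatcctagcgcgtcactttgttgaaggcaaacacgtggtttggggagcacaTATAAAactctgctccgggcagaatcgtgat
Ltbp1: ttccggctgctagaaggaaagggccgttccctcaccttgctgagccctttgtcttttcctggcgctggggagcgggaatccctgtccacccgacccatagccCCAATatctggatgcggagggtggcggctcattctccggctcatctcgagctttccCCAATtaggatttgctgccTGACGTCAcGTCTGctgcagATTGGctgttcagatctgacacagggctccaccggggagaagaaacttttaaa

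The Inhba sequence held TATAAA from 91 to 86 bases before the start and no other searched motif. The Tgfb2 sequence held TATAAA from 31 to 26 bases before the start, where a TATA box usually lies, together with CCAAT and 2 copies of CAGAC. The Ltbp1 sequence held TGACGTCA from 73 to 66 bases before the start, 1 base away from GTCTG, and 3 CCAAT boxes on either strand. Of 32851 upstream sequences of the same length, 7.59% held the TATA box, 1.55% the CRE, 4.46% the AP-1 element, 42.2% the SMAD box and 33.8% the CCAAT box. These matches describe letters only. Entries were found for 7 of the 10 members, and those of Tgfb1 held none of the motifs.

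The pool held 13045 cells with 115033686 UMIs (counted RNA molecules), a median of 7915 per cell. Hashtag 1 marked 3144 cells, hashtag 2 marked 497, hashtag 3 marked 1500 and hashtag 4 marked 1529, with median depths between 6816.5 and 10663 UMIs. The median count of a cell's own hashtag was 364, 76, 113 and 67 UMIs in hashtags 1 to 4. The cutoffs were 36, 52, 61 and 41 UMIs. Only 2649, 179, 1334 and 482 of these cells held a hashtag at least 3 times the next. The calls of hashtags 2 and 4 were thus the weakest, and their error rate was not tested. No hashtag was assigned to 40.7% of cells. The siRNA target gene Piezo1 had levels of 71.6, 89.6, 108 and 86.9 UMIs per 1000000 (counts per 1000000 UMIs, CPM) in hashtags 1 to 4, with intervals of 82.0 to 97.9 for hashtag 2 and 82.4 to 91.5 for hashtag 4, so that the targeted gene does not check the label of hashtag 4, which is called labelled siPiezo1 here. The summed level of 9 VSMC markers was 909, 1720, 1089 and 691 CPM in hashtags 1 to 4, and all 9 markers were detected in each. Endothelial markers summed to between 4.49 and 9.04 CPM with Tie1 at 0 in every hashtag, and macrophage markers to between 6.15 and 11.7 CPM with C1qa and C1qb at 0. Fibroblast markers, 6 genes all detected, summed to 81.8, 50.02, 57.8 and 90.6 CPM in hashtags 1 to 4. Hashtag 4 was highest for these markers and, as given below, for Fst. Hashtag 1 was next for the markers and lowest for Fst. Epithelial or mesothelial markers summed to between 9.38 and 27.3 CPM. The part of such cells in any result was not tested.

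In the comparison of old with young cells (hashtag 2 over hashtag 1), Fst, Tgfb1 and Ltbp1 were higher and Tgfb2 was lower by at least 1.5-fold, which is 4 of the 10 members against 18.2% of the 8462 genes of at least 10 CPM in the pool. With AngII (hashtag 3 over hashtag 1), Inhba, Tgfb1, Smad7 and Ltbp2 were higher and Tgfb2 was lower, 5 of 10 members against 14.5% of all genes. In the cells labelled siPiezo1 compared with old cells (hashtag 4 over hashtag 2), Fst was higher and no other member passed 1.5-fold, 1 of 10 members against 2.72% of all genes. The median ratio of the 10 members was 1.03, 1.16 and 1.07 in these comparisons, beside 1.02, 1.03 and 1.01 for all genes. The first pair of comparisons share the young cells and the first and last share the old cells, so their values are not independent. Tgfb2 and Tgfb3 were below 10 CPM in the pool and are counted among the 10 members but not among the 8462 genes.

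**Figure D1:**
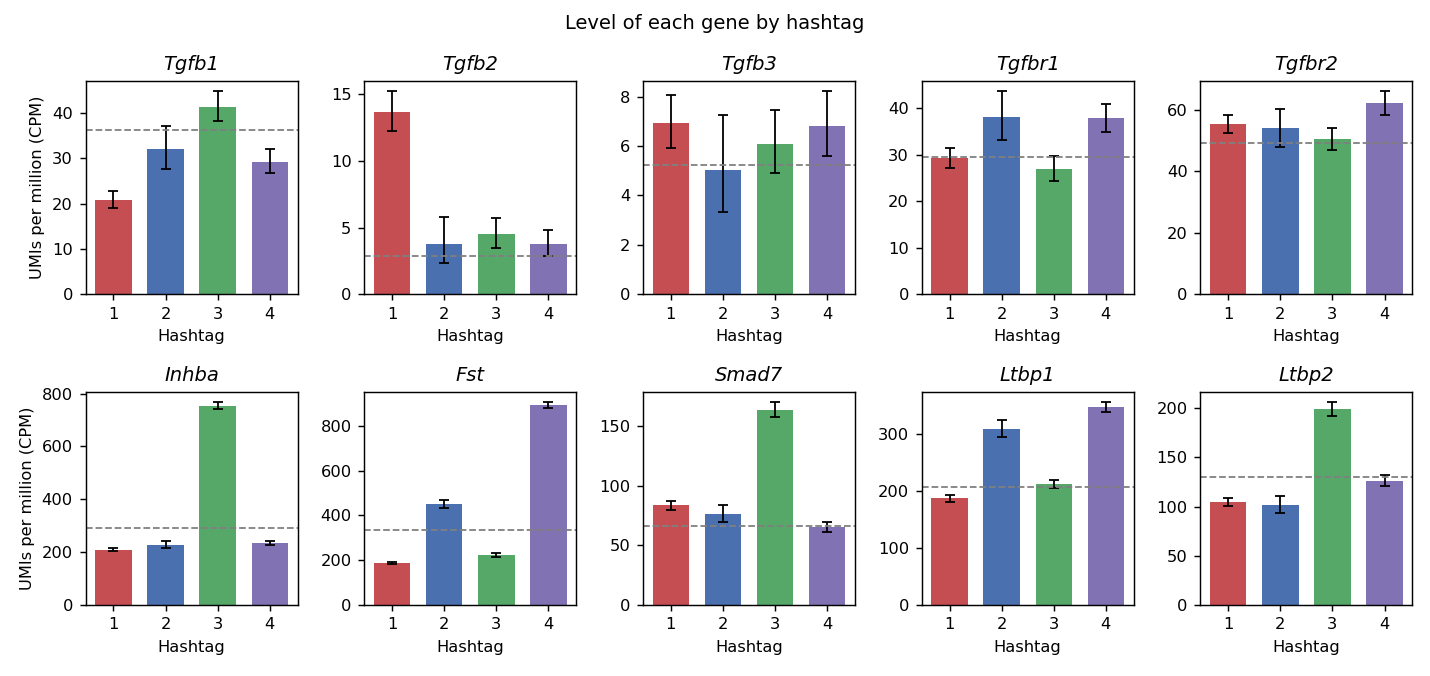
Level of each gene in UMIs per 1000000 (CPM, vertical axis, its own scale in each panel) in hashtags 1 (young), 2 (old), 3 (young + AngII) and 4 (labelled siPiezo1), with exact Poisson 95% intervals and, as a dashed line, the level in near-empty barcodes. Inhba reached 755 CPM in hashtag 3 and Fst 892 CPM in hashtag 4, while Tgfbr2 lay between 50.4 and 62.1 CPM throughout.

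Among the ligands, Inhba, which encodes the subunit of activin A, differed most with AngII. Its level was 208 CPM in young cells, 227 CPM in old cells, 755 CPM in AngII-treated cells and 233 CPM in cells labelled siPiezo1. The AngII culture stood alone, since the other three lay between 208 and 233 CPM. Its ratio of AngII-treated to young cells was 3.63 (3.52 to 3.76), against 1.09 (1.03 to 1.16) for old over young and 1.02 (0.960 to 1.09) for hashtag 4 over hashtag 2. After thinning each cell to 5000 UMIs, Inhba was detected in 52.2%, 50.4%, 89.1% and 54.1% of the cells with hashtags 1 to 4. Before thinning the shares were 59.4%, 69.6%, 92.2% and 70.3%. In the AngII culture the transcript was therefore detected in most cells, with a mean of 3.84 UMIs per thinned cell against 0.999 in young cells. Near-empty barcodes held Inhba at 291 CPM, so some of these UMIs may be free RNA.

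Tgfb1, the isoform made by most cell types, was at 20.9 CPM in young, 32.1 CPM in old, 41.5 CPM in AngII-treated and 29.2 CPM in siPiezo1-labelled cells. The young culture was the lowest and the AngII culture the highest, and the intervals of old (27.6 to 37.2) and siPiezo1-labelled cells (26.7 to 32.0) overlapped. Tgfb1 was 1.54 times the young level in old cells (1.29 to 1.83) and 1.99 times it with AngII (1.76 to 2.24). Its ratio in siPiezo1-labelled to old cells was 0.911 (0.766 to 1.09), an interval that holds no change.

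Tgfb2, an isoform with roles in development of the outflow tract and aorta, went the other way. It was at 13.7 CPM in young cells (330 UMIs), 3.77 CPM in old cells (21 UMIs), 4.49 CPM with AngII (67 UMIs) and 3.73 CPM in siPiezo1-labelled cells (60 UMIs). The young culture thus stood above the other three, which did not differ beyond their intervals. The old level was 0.275 times the young level (0.168 to 0.428) and the AngII level 0.328 times it (0.248 to 0.428). The low levels were close to the 2.86 CPM of near-empty barcodes, which carry free RNA and no cell. That background lay inside the interval for old and siPiezo1-labelled cells (2.33 to 5.76 and 2.84 to 4.80). It rested on 6 UMIs, with its own interval of 1.05 to 6.23 CPM, which also held the AngII level. Tgfb3 was at 6.92, 5.02, 6.09 and 6.83 CPM in hashtags 1 to 4, no ratio passed 1.5-fold, and all 3 intervals of the ratios held 1. Its old-to-young ratio passed 1.5-fold lower in 5 of 15 alternative settings. The near-empty level of Tgfb3 was 5.25 CPM, from 11 UMIs. Its interval of 2.62 to 9.39 CPM held the level of every hashtag.

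The receptor genes varied little. Tgfbr1, the kinase that passes the signal to the SMAD proteins, was at 29.3 CPM in young, 38.2 CPM in old, 26.9 CPM in AngII-treated and 37.9 CPM in siPiezo1-labelled cells. The old culture and the siPiezo1-labelled culture lay above the other pair, with an old-to-young ratio of 1.30 (1.11 to 1.52). Tgfbr2, which binds the ligand first, had levels of 55.4, 54.0, 50.4 and 62.1 CPM in hashtags 1 to 4, and its ratios were 0.974 (0.857 to 1.10), 0.910 (0.831 to 0.996) and 1.15 (1.01 to 1.31). Neither receptor gene reached 1.5-fold in any of the 3 comparisons, but Tgfbr1 in old over young cells was at 1.52 without the called doublets. Both levels were near those of near-empty barcodes, 29.6 and 49.1 CPM.

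Smad7, the feedback inhibitor, was at 83.4 CPM in young, 76.4 CPM in old, 164 CPM in AngII-treated and 65.1 CPM in siPiezo1-labelled cells. The AngII culture was the highest, and young and old cells overlapped in their intervals (79.8 to 87.1 and 69.3 to 84.0). The AngII ratio was 1.96 (1.85 to 2.08), while siPiezo1-labelled cells were at 0.853 times the old level (0.761 to 0.957). Thinned shares of cells with a Smad7 UMI were 33.5%, 27.9%, 54.3% and 27.1%, in the order of the CPM, and the intervals of old and siPiezo1-labelled cells overlapped.

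Fst, whose product follistatin neutralizes activin, had a different order from that of Inhba. It was at 187 CPM in young cells, 451 CPM in old cells, 223 CPM in AngII-treated cells and 892 CPM in siPiezo1-labelled cells. All 4 intervals were apart, with both aged cultures above both young ones. The ratios were 2.41 for old over young (2.29 to 2.53), 1.19 for AngII over young (1.14 to 1.24) and 1.98 for siPiezo1-labelled over old (1.89 to 2.06). Thinned shares of cells with Fst were 38.4%, 60.1%, 47.9% and 73.4%, and the shares before thinning were 44.9%, 73.0%, 60.9% and 80.5%. The 10% of thinned cells with most Fst held 59.7% of its UMIs in young cells and 37.5% in siPiezo1-labelled cells. The means were 0.920 and 4.73 UMIs per thinned cell. Sparse counting alone raises such a share, so the shares cannot be compared between cultures.

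Ltbp1, which anchors latent TGF-beta in the matrix, followed the aged cultures as Fst did. It was at 187 CPM in young, 310 CPM in old, 213 CPM in AngII-treated and 348 CPM in siPiezo1-labelled cells, with all 4 intervals apart. The old-to-young ratio was 1.65 (1.56 to 1.75), the AngII ratio 1.14 (1.09 to 1.19) and the siPiezo1-labelled ratio 1.12 (1.06 to 1.19). Ltbp2, a matrix protein of microfibrils that does not bind latent TGF-beta, followed Inhba and Smad7 instead. It was at 105, 102, 199 and 126 CPM in hashtags 1 to 4, and its AngII ratio was 1.90 (1.80 to 2.01). The shares of thinned cells with Ltbp2 were 35.5%, 37.8%, 53.7% and 44.1%.

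Free RNA in the droplets limited how far shares of cells could be read as expression. Near-empty barcodes held Inhba at 291 CPM, Fst at 334 CPM, Smad7 at 66.3 CPM, Ltbp1 at 207 CPM and Ltbp2 at 130 CPM, so free RNA carried all of these transcripts. Inhba in hashtag 3 and Fst in hashtags 2 and 4 were above these levels, whereas Inhba in the other three hashtags and Fst in hashtags 1 and 3 were below them. From Xist in cells with at least 3 Y-linked UMIs, a set that includes called doublets, free RNA was estimated at 30.4% of the UMIs. That share is too high for at least some cells. In cluster 2 described below, at a median of 5900 UMIs, 0.928% of cells held Xist only and 2.06% held Xist beside Y-linked transcripts. As an extreme setting, and not as a correction, that share of the near-empty profile was subtracted. The ratio of Inhba with AngII was then 5.59 and that of Tgfb1 with AngII 3.09. The Fst ratio was 4.07 in old over young cells and 2.26 in siPiezo1-labelled over old cells. No cell type that should lack these genes was found in the culture to give a second background.

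**Figure D2:**
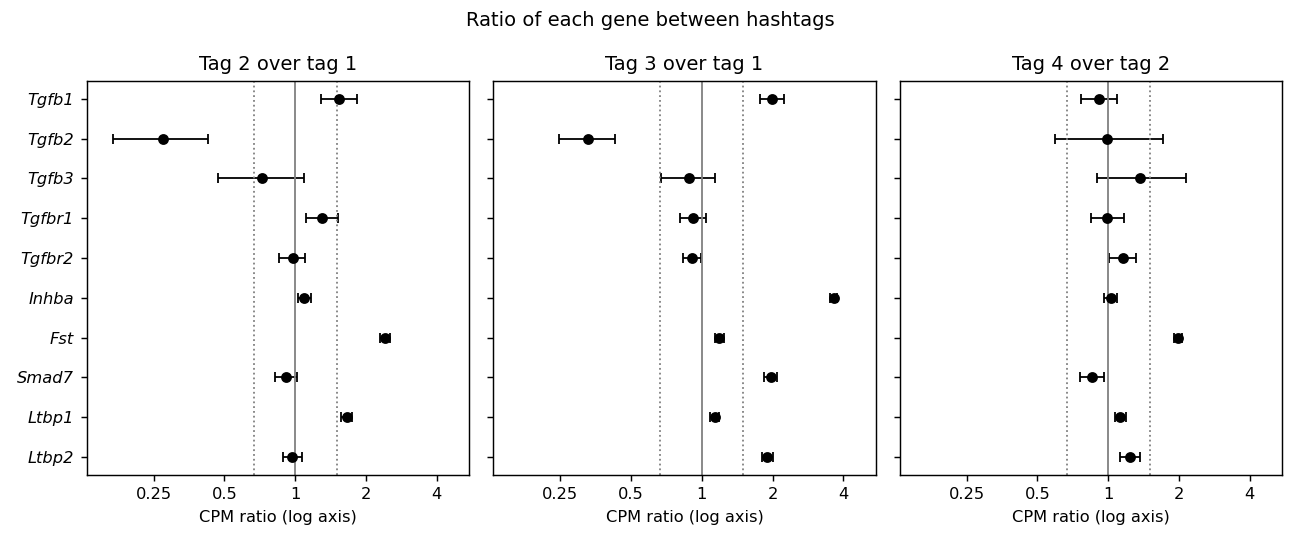
CPM ratio of each gene (log axis) for old over young cells (tag 2 over tag 1), AngII-treated over young cells (tag 3 over tag 1) and siPiezo1-labelled over old cells (tag 4 over tag 2), with exact binomial 95% intervals, a solid line at 1 and dotted lines at 1.5-fold either way. Inhba lay farthest to the right with AngII at 3.63, Tgfb2 was left of the dotted line in the first and second panels, and Fst alone was past it in the third.

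The hashtags held cells of different sex-linked transcripts, and the ratios of Fst depended on them. Y-linked transcripts without Xist were found in 54.1% of young, 19.5% of old, 55.5% of AngII-treated and 13.8% of siPiezo1-labelled cells, and Xist without Y-linked transcripts in 4.90%, 63.0%, 6.27% and 66.8%. Cells with Y-linked transcripts only had Fst at 139, 404, 184 and 446 CPM in hashtags 1 to 4, and cells with Xist only had it at 558, 468, 355 and 1070 CPM. Fst was therefore higher in the Xist-only cells of every hashtag, by 4.01 times in young cells (3.70 to 4.35), 1.16 times in old cells (1.05 to 1.29), 1.93 times with AngII (1.72 to 2.16) and 2.40 times in siPiezo1-labelled cells (2.25 to 2.56).

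Within these classes the comparisons came apart. For siPiezo1-labelled over old cells, the Fst ratio was 2.28 (2.17 to 2.41) among Xist-only cells, 1021 against 313, and 1.11 (0.991 to 1.24) among Y-only cells, 211 against 97. For old over young cells, it was 2.90 (2.61 to 3.21) among Y-only cells and 0.839 (0.772 to 0.912) among Xist-only cells. In the latter class 313 old cells stood against 154 young ones. Of all young cells, 55.2% lay in cluster 2, 16.6% in cluster 8 and 14.2% in cluster 7, described below. Xist-only cells made up 0.928%, 0.898% and 13.7% of these clusters. In cluster 7, 35.5% of cells held both kinds of transcript and 81.9% were called doublets. Whether some of the 154 carry a wrong hashtag or are doublets was not tested. Among cells with both kinds of transcript, the Fst ratio was 1.62 (1.42 to 1.84) for siPiezo1-labelled over old cells and 1.36 (1.18 to 1.55) for old over young cells. Among cells with neither, it was 1.10 (0.926 to 1.30) and 3.55 (3.0 to 4.18). The siPiezo1-labelled cells were thus higher in Fst in the classes with Xist, and the old cells in every class but the Xist-only one, with as few as 43 old cells in a class. The Ltbp1 ratio of old over young cells was 1.69 (1.51 to 1.89) among Y-only cells and 1.09 (0.976 to 1.22) among Xist-only cells, and that of Tgfb1 was 1.58 (1.07 to 2.27) and 0.804 (0.579 to 1.13).

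Inhba was higher with AngII in both classes. Its level in Y-only cells was 218, 274, 855 and 294 CPM in hashtags 1 to 4, and in Xist-only cells 204, 212, 453 and 207 CPM. The AngII ratios were 3.93 (3.77 to 4.10) and 2.23 (1.93 to 2.57). For Smad7 they were 2.07 (1.92 to 2.24) among Y-only cells and 1.26 (0.955 to 1.66) among Xist-only cells, and for Ltbp2 1.94 (1.81 to 2.08) and 1.47 (1.17 to 1.85). Tgfb1 was 2.42 times the young level with AngII among Y-only cells (2.06 to 2.85) and 0.858 times it among Xist-only cells (0.548 to 1.33). Fst with AngII was 1.32 times the young level among Y-only cells (1.24 to 1.41) and 0.636 times it among Xist-only cells (0.562 to 0.718). Tgfb2 was below the young level in both classes, at 0.301 (0.206 to 0.430) and 0.413 (0.0990 to 1.32). Only 94 AngII-treated cells were in the Xist-only class, and Xist was also part of the free RNA, at 334 CPM in near-empty barcodes, so an Xist UMI need not come from the cell itself. How far the donors' sex or a wrong hashtag accounts for any ratio was not tested.

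**Figure D3:**
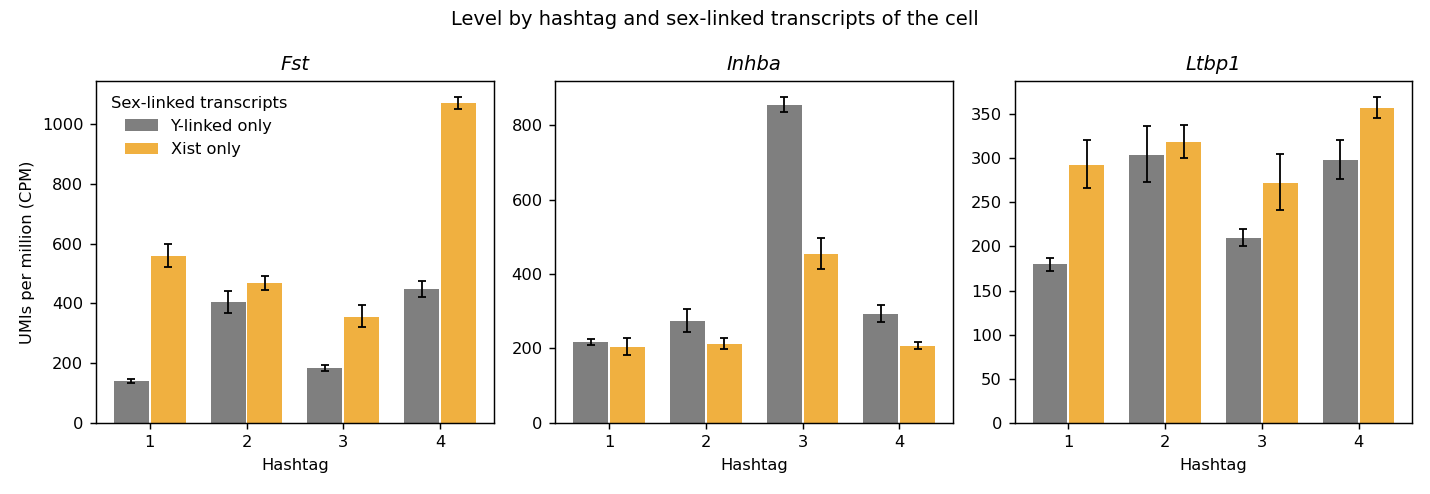
Level of Fst, Inhba and Ltbp1 (CPM, vertical axes) in cells with Y-linked transcripts only (grey) and with Xist only (yellow), by hashtag, with exact Poisson 95% intervals. Fst in hashtag 4 was at 1070 CPM in Xist-only cells and at 446 CPM in Y-only cells, and Inhba was highest in hashtag 3 in both classes, at 453 and 855 CPM.

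To see how the genes varied among cell states, the cells were clustered without the 10 members and without the other pathway genes, which gave 13 clusters. Cluster 6 was VSMC-like, with Acta2, Tagln, Myl9, Cnn1 and Lmod1 among its 10 leading genes. Of the 9 VSMC markers, 6 were above the rest there, and the others were not above it or were below 10 CPM in the pool. Cluster 1 was dividing cell-like, with Mki67 and kinesin genes among its leading genes. All 8 dividing cell markers were also above the rest in cluster 8, 93.9% young and with Cdkn3, Plk1 and Cdc20 among its leading genes, but none of the 8 was among its 10 leading genes. In clusters 5 and 11, 7 and 6 of the 8 were above the rest. The other clusters are given by number and leading genes. Of 10 members, 6 had a highest cluster at least 2 times the median of the clusters, and 4 did so with 9 clusters. Tgfbr1, Smad7 and Ltbp2 did so only in cluster 12, of 85 cells, and not with 9 clusters. The share of all genes that do so was not computed, so these counts show nothing particular to the members.

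Inhba was at 787 CPM in cluster 5 (leading genes Ccne2 and Ccne1), 768 CPM in cluster 3 (Lce1g, Serpinb2 and Ccn2) and 706 CPM in cluster 12 (Zfp804a), and at most 408 CPM in the 10 others. AngII-treated cells made up 47.2% of cluster 5, 45.6% of cluster 3 and 50.6% of cluster 12. Smad7 was high in the same 3 clusters, at 151, 165 and 221 CPM, and so was Ltbp2, at 214, 196 and 520 CPM. Clusters 3, 5 and 12 held 55.1%, 22.7% and 2.87% of the AngII-treated cells. Young cells in cluster 3 had Inhba at 499.6 CPM (78 cells), against 208 CPM in all young cells. Those 78 were 2.48% of the young cells, and a wrong hashtag among them was not tested for.

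Fst had its highest level in cluster 10, led by Lmo7 and with the IL-33 receptor gene Il1rl1, Slpi and Dio2 among its leading genes, where it reached 1690 CPM (1648 to 1733). It was next highest in the dividing cell-like cluster 1, at 803 CPM, and in cluster 0, at 613 CPM. It was at 125 CPM in cluster 8, where all dividing cell markers were also high, and lowest in cluster 12, at 72.0 CPM. In clusters 5 and 11, where most dividing cell markers were above the rest, Fst was at 215 and 265 CPM. Cluster 7, with Rsad2 and Cxcl10 among its leading genes, held 14.2% of the young cells. Young cells had Fst at 365 CPM there, against 87.5 CPM in cluster 2. Of the cells of cluster 7, 81.9% were called doublets. Cluster 10 held 435 cells, 65.5% of them with hashtag 4 and 90.3% of them with Xist only. It took 18.6% of the siPiezo1-labelled cells and 29.2% of their Fst UMIs, against 0.604% and 0.636% in old cells. Without cluster 10, the Fst ratio of siPiezo1-labelled over old cells was 1.65.

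Tgfb2 stood out in cluster 11, at 44.3 CPM (34.6 to 56.0), a cluster of 180 cells with Gdf15 and Gadd45b among its leading genes, 76.1% of them young. It was at 12.3 CPM in cluster 2, led by the interferon-induced gene Ifit3 and 89.5% young, at 2.05 CPM in the dividing cell-like cluster 1 and at 11.8 CPM in cluster 8. No Tgfb2 UMI was found in cluster 9, which allows up to 2.15 CPM, and that cluster was shallow, with a median of 3294.5 UMIs. Tgfb1 ranged from 15.5 CPM in cluster 2 to 48.7 CPM in cluster 5. Tgfbr1, at 79.0 CPM, Tgfbr2, at 85.9 CPM, and Ltbp1, at 485 CPM, were highest in cluster 12, which held 85 cells. In the VSMC-like cluster Fst was at 209 CPM, Inhba at 300 CPM, Smad7 at 88.7 CPM and Ltbp1 at 304 CPM, none of them the highest or lowest of the clusters.

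**Figure D4:**
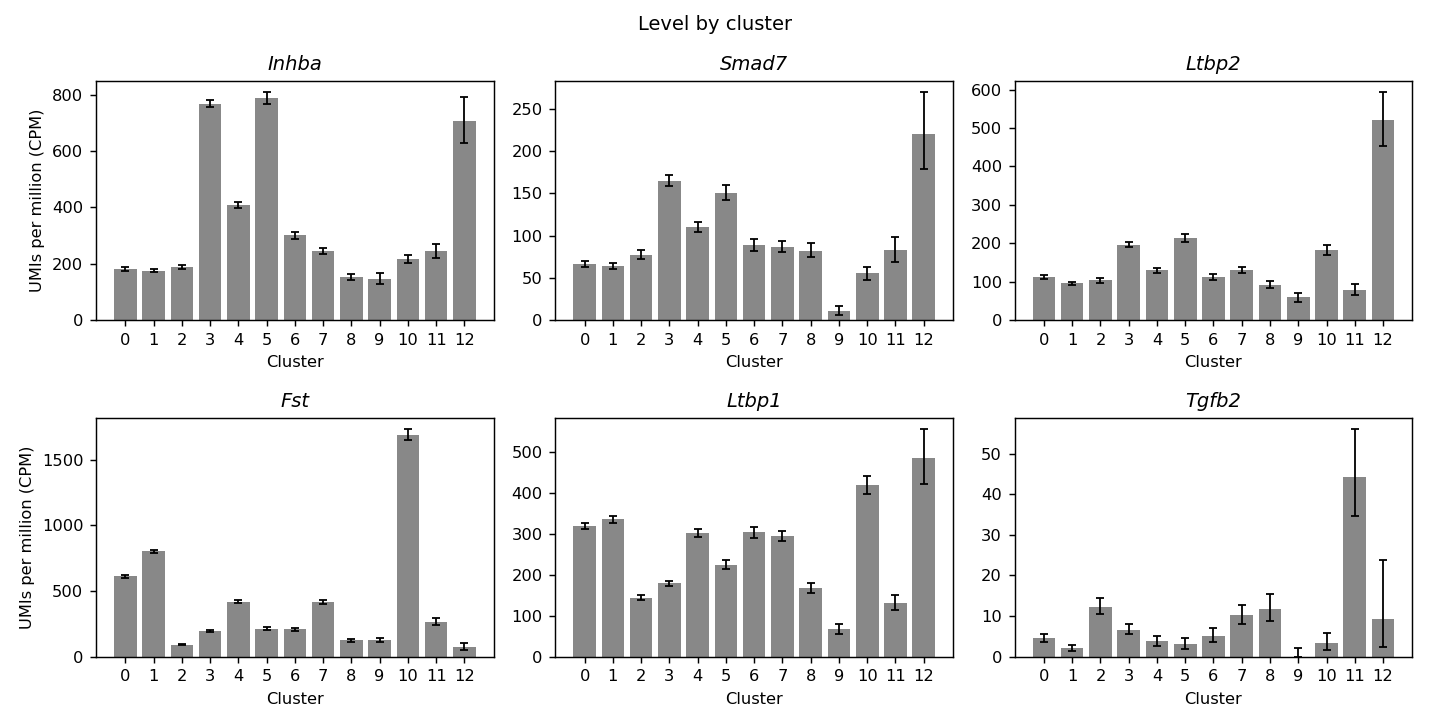
Level of 6 of the genes (CPM, vertical axes) in the 13 clusters, over all cells of the pool, with exact Poisson 95% intervals. Inhba was high in clusters 3, 5 and 12, Fst in cluster 10 at 1690 CPM and Tgfb2 in cluster 11 at 44.3 CPM.

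Where a cluster held at least 50 cells of both hashtags, the comparison was repeated inside it. With AngII, Inhba was 1.60 times the young level in cluster 3 (1.44 to 1.79) and 1.83 times it in cluster 4 (1.61 to 2.09), both below the ratio over all cells. Smad7 was 1.37 times the young level in cluster 3 (1.10 to 1.71) and 1.28 times in cluster 4 (0.998 to 1.66). The AngII ratio of Ltbp2 was 1.43 in cluster 3 (1.16 to 1.78) and 1.89 in cluster 4 (1.48 to 2.45), the latter close to its ratio over all cells. Tgfb1 was at 0.850 (0.597 to 1.25) and 1.01 (0.651 to 1.61). Tgfb2 remained below the young level in both clusters, at 0.287 (0.148 to 0.600) and 0.145 (0.0252 to 0.579). Scrublet called 72.8% of the cells of cluster 4 doublets. The young and AngII cultures otherwise lay mostly in different clusters, so these within-cluster values rest on 78 and 63 young cells. A wrong hashtag among those young cells was not tested for.

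For siPiezo1-labelled over old cells, Fst was 2.17 times the old level in the dividing cell-like cluster 1 (2.01 to 2.35), 1.12 times in cluster 0 (1.05 to 1.20) and 0.965 times in the VSMC-like cluster 6 (0.792 to 1.18). The Fst difference was thus unequal between clusters, from 1143 against 526 CPM in cluster 1 to 195 against 202 CPM in cluster 6. In cluster 1 Ltbp1 was also higher, at 1.36 times the old level (1.22 to 1.52). Old and young cells shared only cluster 0 in sufficient number, with 221 and 54 cells. There the ratio of Fst was 1.07 (0.933 to 1.22) and that of Ltbp1 1.06 (0.878 to 1.29). Those 54 were 1.72% of the young cells, and a wrong hashtag among them was not tested for.

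Cells that carried one member more often carried another in a minority of pairs. In cells thinned to 5000 UMIs, the share of cells with the second gene was compared between cells with and without the first. The intervals were apart in 12 of 157 values of a pair and hashtag, 11 with a higher and 1 with a lower share. The share among pairs of all genes was not computed, so the count shows nothing particular to the members. Ltbp1 was detected in 78.0% of siPiezo1-labelled cells with Fst (75.4% to 80.5%) and in 65.5% of those without (60.5% to 70.3%), and in 57.5% and 49.9% of young cells. Smad7 was detected in 30.7% of siPiezo1-labelled cells with Inhba and 22.8% of those without. Ltbp2 was detected in 43.7% of old cells with Ltbp1 and 23.9% of those without. The 1 pair with fewer was Tgfb2 and Ltbp1 in young cells, where Ltbp1 was found in 42.7% of cells with Tgfb2 and 53.5% of those without. These cells share a library, and called doublets are among them.

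Across 18 groups of cells of 1 hashtag and 1 cluster, each with at least 50 cells, the levels of Inhba and Smad7 varied together, with a Pearson r of 0.908 on log2(CPM + 1). For Fst and Ltbp1 r was 0.755, and for Inhba and Fst it was -0.28. The groups share the library, the clusters and the hashtags, so these values are descriptions. The 3 genes most like Inhba were Nipal1 (r of 0.941), Thbd (0.934) and Smad7 itself. Those most like Fst were Aig1 (0.963), Il1rl1 (0.959) and Prrx2 (0.949). Smad7 was most like Serp1 (0.964) and Itga5 (0.944), and those most like Ltbp1 were Il18rap (0.959), Tfec (0.959) and Lancl3 (0.948). Nearest to Tgfb1 were Atp6v1g1, Arl8a and Hmox1, to Tgfbr1 Plxdc2, Pik3r3 and Tnrc6b, to Tgfbr2 Mbd5, Fgf10 and Pcdh9, and to Ltbp2 Map2k3, Csk and Cflar, with r between 0.836 and 0.938.

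**Figure D5:**
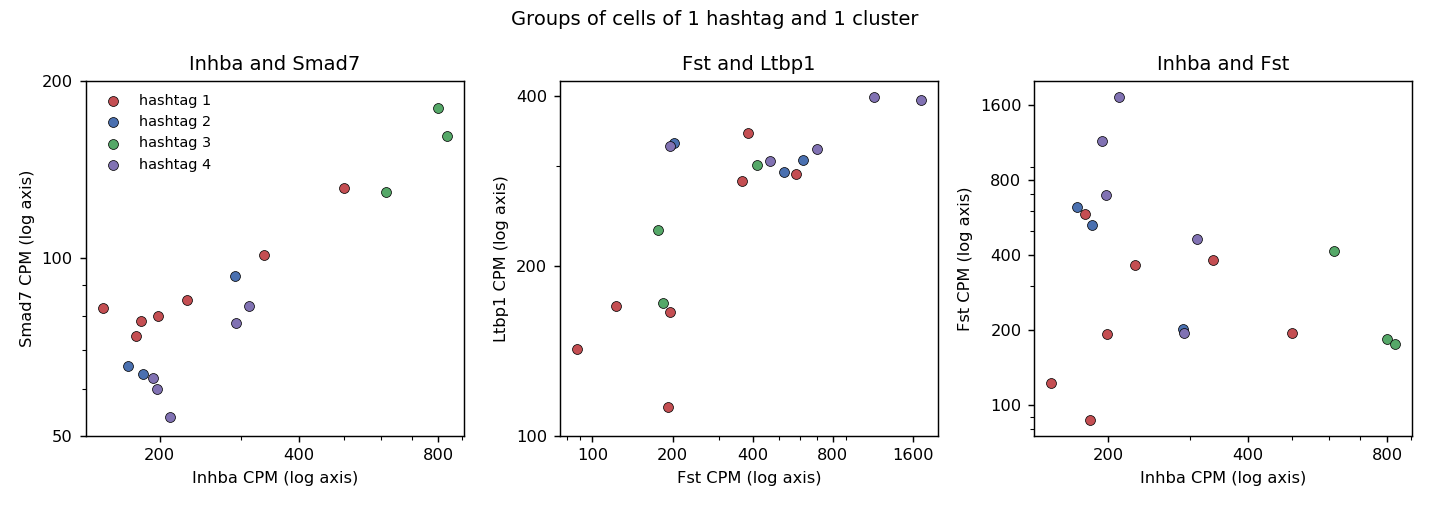
CPM levels (log axes) of Inhba and Smad7, Fst and Ltbp1, and Inhba and Fst in 18 groups of cells of 1 hashtag and 1 cluster, colored by hashtag. The groups of hashtag 3 lie at the upper right for Inhba and Smad7. Fst is highest in the hashtag 4 groups of clusters 10, 1 and 0, while the hashtag 4 group of cluster 6 is at 195 CPM.

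The rest of the pathway was read from a list of 65 further genes, of which 48 reached 10 CPM in the pool. In old compared with young cells, 5 of the 48 were at least 1.5-fold higher and 15 at least 1.5-fold lower, against 8.34% and 9.83% of all genes. Of the 13 measured genes listed as targets of TGF-beta signalling, none was higher and 8 were lower. The lower targets included the collagen gene Col3a1, at 341 CPM in young and 54.3 CPM in old cells, and Lox, the collagen cross-linking enzyme, at 1049 and 210 CPM, with ratios of 0.159 (0.141 to 0.178) and 0.200 (0.188 to 0.212). Col1a2 was at 0.337 (0.322 to 0.352) and Col1a1 at 0.405 (0.382 to 0.430) times the young level. Lrrc32, whose product holds latent TGF-beta at the cell surface, was at 0.202 (0.165 to 0.245), the microfibril gene Fbn1 at 0.314 (0.288 to 0.343), the activin subunit gene Inhbb at 0.206 (0.154 to 0.271) and the stress-induced ligand gene Gdf15 at 0.216 (0.169 to 0.274). Bmp2, a ligand of the bone morphogenetic protein branch, was 3.71 times the young level in old cells (2.96 to 4.66). Ccn2 was at 0.453 (0.408 to 0.502).

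With AngII, 10 of the 48 were higher and 7 lower than in young cells, against 6.9% and 7.59% of all genes. Among the targets, 4 were higher, including Ccn2 (connective tissue growth factor) at 365 against 163 CPM, Id2 and Pmepa1, while Col3a1, Col1a2 and Cdkn2b were lower. The ratio of Ccn2 was 2.25 (2.16 to 2.34), that of Id2 2.08 (1.93 to 2.25) and that of Col3a1 0.224 (0.210 to 0.238). Of the 11 measured inhibitors, 3 were higher, 1 was lower and 7 lay within 1.5-fold. Smurf2, a ubiquitin ligase that works with SMAD7, was at 2.77 times the young level (2.63 to 2.91), and the lower one was Fstl1, at 0.602 times (0.585 to 0.619). Smad6, an inhibitory SMAD and the 1 of 6 listed Smads past 1.5-fold, was at 2.33 times (2.01 to 2.70). Thbs1, whose product thrombospondin 1 can activate latent TGF-beta, was at 2609 against 1169 CPM, a ratio of 2.23 (2.20 to 2.27). Gdf15, at 0.210 (0.180 to 0.245), and the cell cycle inhibitor gene Cdkn2b, at 0.410 (0.371 to 0.453), were lower, and no measured receptor gene was higher.

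Between siPiezo1-labelled and old cells the pathway differed at 3 of the 48 genes. Col3a1 was at 89.0 against 54.3 CPM, a ratio of 1.64 (1.45 to 1.86), Inhbb at 14.8 against 9.68 CPM (1.53, 1.13 to 2.09) and Ccn2 at 45.7 against 73.7 CPM (0.620, 0.549 to 0.701). That is 2 higher, against 1.77% of all genes, and 1 lower, against 0.945%. None of the 11 measured inhibitors, 7 receptors or 6 Smads on the list passed 1.5-fold there, against 2.72% of all genes. At that share few or none of so few genes would pass, so the count shows nothing particular to them. Fst, the member that is an activin inhibitor, did pass.

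Interferon-response transcripts and mitochondrial shares moved with the hashtags too. The summed level of 7 interferon-response genes was 2910, 84.6, 306 and 93.0 CPM in hashtags 1 to 4, and the median share of mitochondrial UMIs was 1.08%, 1.84%, 0.224% and 1.86%. Cells with 1% to 20% mitochondrial UMIs were only 408 of the 1500 AngII-treated and 1659 of the 3144 young cells. Restricted to them, the AngII ratio of Inhba was 4.03, that of Smad7 2.01 and that of Fst 1.51. The part of the interferon response in the low Tgfb1 and high Tgfb2 of young cells was not tested.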

How the data were processed

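Cultures were young, old, AngII-treated young and siPiezo1-labelled old VSMCs, hashed (TotalSeq A) and sequenced as 1 droplet library. The authors deposited unfiltered UMI counts from Cell Ranger 4 for 2472397 barcodes (genome build not given in the sources used here). Cells had at least 2218 gene UMIs and 200 genes. A cell took a hashtag if that hashtag alone exceeded its cutoff (36, 52, 61 and 41 UMIs). Counts were summed per hashtag and scaled to 1000000 (CPM), with exact Poisson (levels), exact binomial (ratios) and Clopper-Pearson (shares) 95% intervals. The members, the pathway list and the marker lists were chosen with earlier results of these data known. Named were all members and up to 10 pathway genes per comparison with the largest fold past 1.5, apart from some not reported here. The clusters used Seurat 5.3.0 in R 4.3.3 (2000 variable genes, 30 components, 20 neighbours, resolution 0.8). Doublets called by Scrublet (scanpy 1.11.5, expected rate 0.1), 3058 cells or 23.4%, were kept. Free RNA was the sum of 1299325 barcodes with 1 to 100 UMIs. Promoters are from RefSeq. The ratio was run on simulated Poisson counts of 8462 genes with 200 changed 2-fold, and 95.2% to 95.8% of intervals held the true ratio. This checks the computation only, since the simulation held no variation between cells or cultures.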

Additional observations from a re-analysis of the deposited data

Results flagged for a closer look

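The 5307 cells without a hashtag enter no comparison, and all 10 genes were detected in them. Their levels were 30.3 CPM for Tgfb1, 3.94 CPM for Tgfb2, 5.72 CPM for Tgfb3, 37.8 CPM for Tgfbr1 and 52.1 CPM for Tgfbr2. Inhba was at 302 CPM, Fst at 513 CPM, Smad7 at 83.2 CPM, Ltbp1 at 293 CPM and Ltbp2 at 127 CPM. The Fst level lay between those of old and siPiezo1-labelled cells, and the Ltbp1 level between those of AngII-treated and old cells. These cells are of no known group.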

How the results depend on the processing

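Of 450 member ratios recomputed under alternatives, 354 stayed within the counting interval of the reported value, 93 moved out of it and 3 that were past 1.5-fold changed direction. Those 3 were among Xist-only cells, where old over young was 0.804 for Tgfb1 and 0.839 for Fst, and AngII over young was 0.858 for Tgfb1. In that class 2 members passed 1.5-fold in old over young cells and 3 in AngII over young cells. Without called doublets 6 members passed in old over young cells, Tgfb3 and Tgfbr1 beside the others. Among Y-only cells 1 member passed in siPiezo1-labelled over old cells, Tgfb3 in place of Fst. At 2-fold, 2, 2 and 0 members passed in the 3 comparisons. In siPiezo1-labelled over old cells, 2 members passed (Tgfb3 beside Fst) when cells were thinned to 5000 UMIs. The same 2 passed when free RNA was subtracted at the share estimated above. For none of these counts was the share of all genes computed in the same setting, so they have no background to be read against. Some classes were small, with 97 Y-only old cells and 94 Xist-only AngII-treated cells. With genes down to 1 CPM, 11.1% of all genes passed 1.5-fold in siPiezo1-labelled over old cells. Ltbp1 in old over young cells fell to 1.47 where the hashtag had to be at least 3 times the next. Median-of-ratios scaling shifted the log2 ratios by at most 0.06. The Xist-only cells, the removal of cluster 10, the removal of clusters 4 and 7, and the requirement of the highest centred log-ratio hashtag were chosen after seeing the data. The causes were not tested. No paired analysis was possible because each hashtag is 1 culture and carries no replicate number. Depth limits Tgfb2 and Tgfb3, with 21 and 28 UMIs in old cells.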
